A study of Mus musculus with 4 samples.

Results

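The genes described here supply the cytosol of the liver cell with the carbon and the reducing power for fatty acid synthesis. They make cytosolic acetyl-CoA (Acly and Acss2), malonyl-CoA (Acaca and Acacb), palmitate (Fasn) and NADPH (Me1, Pgd and G6pdx). They also include Aacs, the acetoacetyl-CoA synthetase that activates the ketone body acetoacetate, and Thrsp, a small protein of the lipogenic programme. The members were fixed by name, as every probe set whose annotation gave 1 of these symbols alone. Of the 10 genes listed, 9 had a value, on 21 probe sets, out of 12393 genes that the array names by a single symbol. No probe set used here carried the symbol G6pdx alone, so that gene has no value. The RNA came from whole liver of 4 male mice that carried an ABCA1 transgene, labelled ABCA1-TG, of strain C57BL/6, 5 to 6 months old and fed the NIH36 diet. All 4 belong to 1 group and have 1 array each. The labels call them biological replicates and say no more of their origin, so p-values measure the spread between these samples, which may be technical. In the test of a shared difference, described below, that spread is set against the disagreement among the probe sets of a gene. The labels do not say which promoter drove the transgene. The series design also names wild-type controls, which were not analysed here, so every comparison below is between transgenic mice, called mouse 1 to mouse 4 after the replicate numbers in the titles.

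Fatty acid synthesis starts from citrate that leaves the mitochondrion and is cleaved by ATP-citrate lyase into acetyl-CoA. Acetyl-CoA carboxylase turns acetyl-CoA into malonyl-CoA, and fatty acid synthase condenses malonyl-CoA into palmitate, using NADPH at each reduction. In liver the genes of these steps are known targets of SREBP-1c, which answers to insulin and to LXR, and of ChREBP, which answers to glucose. In bulk liver RNA, fewer cells of a type and less RNA per cell cannot be told apart.

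Promoter windows are shown for the members the results turn on. These are Thrsp and Pgd, whose probe sets shared a difference between mice beyond their own disagreement, Aacs, which had the widest spread, and Fasn, the enzyme of palmitate synthesis. The sequences are from RefSeq on build GRCm38.p6, run 5′ to 3′ on the strand of the gene, and span 250 bases before to 50 bases after the annotated start, which for Pgd is the more upstream start. Capitals mark matches, on either strand, to the NF-Y motif CCAAT or the Sp1 motif GGGCGG. The windows lie at chr7:97417501-97417800 on the minus strand for Thrsp, chr4:149166656-149166955 on the minus strand for Pgd, chr5:125475623-125475922 on the plus strand for Aacs and chr11:120824498-120824797 on the minus strand for Fasn.
Thrsp: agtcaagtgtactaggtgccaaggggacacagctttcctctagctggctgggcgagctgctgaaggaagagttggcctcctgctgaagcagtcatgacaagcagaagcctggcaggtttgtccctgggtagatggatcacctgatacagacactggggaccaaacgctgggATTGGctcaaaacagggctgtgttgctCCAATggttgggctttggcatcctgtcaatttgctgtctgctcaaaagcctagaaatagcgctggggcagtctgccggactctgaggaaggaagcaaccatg
Pgd: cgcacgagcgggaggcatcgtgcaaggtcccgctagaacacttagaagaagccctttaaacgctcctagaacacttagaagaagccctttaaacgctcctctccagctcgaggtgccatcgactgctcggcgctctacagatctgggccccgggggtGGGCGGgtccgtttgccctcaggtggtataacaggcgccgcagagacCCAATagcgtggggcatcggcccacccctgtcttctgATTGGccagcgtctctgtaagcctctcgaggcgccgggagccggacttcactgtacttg
Aacs: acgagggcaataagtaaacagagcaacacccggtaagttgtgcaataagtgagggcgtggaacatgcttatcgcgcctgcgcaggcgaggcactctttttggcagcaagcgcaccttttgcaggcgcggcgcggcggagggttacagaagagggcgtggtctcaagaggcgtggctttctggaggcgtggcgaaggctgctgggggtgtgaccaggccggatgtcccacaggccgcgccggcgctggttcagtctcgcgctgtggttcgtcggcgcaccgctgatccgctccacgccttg
Fasn: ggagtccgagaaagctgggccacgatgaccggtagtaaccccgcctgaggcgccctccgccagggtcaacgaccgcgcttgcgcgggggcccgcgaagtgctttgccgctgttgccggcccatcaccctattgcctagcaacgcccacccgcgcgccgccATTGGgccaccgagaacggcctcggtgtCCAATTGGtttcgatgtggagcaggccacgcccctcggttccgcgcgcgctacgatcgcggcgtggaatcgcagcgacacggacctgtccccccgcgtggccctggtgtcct

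All 10 members had at least 1 window in the RefSeq table, 12 windows in all. The motif CCAAT was present in 7 of the 12 windows, 1 each for Acly, Acacb, Fasn, Me1, Pgd, Acss2 and Thrsp, and in 37.4% of all 32851 windows of that length. Thrsp and Pgd each held it 2 times and Fasn 3 times. In Fasn 2 of the matches overlapped, in opposite orientation. The motif GGGCGG was present in 5 of the 12 windows, those of Acly, Me1, Pgd, G6pdx and Acss2, against 35.7% of all windows. Neither the sterol regulatory motif TCACNCCAC (1.24% of all windows) nor the E-box CACGTG (7.15% of all windows) matched a member's window on either strand. A match is a description of letters, and a missing match says only that those letters are not in these windows.

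The arrays were close in scale. The median signal ran from 267 to 305, a span of 0.19 on the log2 scale, and array medians lay up to 0.11 log2 from their mean. Hepatocyte genes were among the brightest on every array, with Alb, serum albumin, at 59519, 68356, 62792 and 64109 signal units in mice 1 to 4. Abca1, the gene that the transgene label names, had a log2 signal of 12.82 ± 0.17 (SD, n = 4) on its brightest probe set. Its other probe sets had means of 8.87 and 8.06. Whether these probe sets read the transgene, and whether Abca1 was above the wild-type level, was not tested. The Gapdh controls at the 2 ends of the transcript, whose ratio reflects RNA and cDNA length, differed least in mouse 1. Their log2 ratio (3-prime over 5-prime) was 1.67, 1.94, 2.03 and 2.00 in mice 1 to 4. The Actb ratio was also lowest in mouse 1, at 1.82, and highest in mouse 3, at 2.12. The Pcx ratio was 4.09 in mouse 1 against 4.71 to 4.79 in the other mice. Mouse 1 had the highest 18S signal, at 9.95 against 8.75 to 8.98 on the log2 scale.

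Most of the lipogenic genes had their highest level in mouse 3 and their lowest in mouse 1. For each gene, the probe set of highest mean level was used as its value, and each mouse was set against the mean of the other 3. In mouse 3, 8 of the 9 genes were above the others, with a median difference of 0.52 log2 (1.43-fold), and in mouse 1, 0 of 9 were above, with a median of -0.39. In mouse 4, 1 of 9 was above, with a median of -0.26, and in mouse 2, 6 of 9 were above, with a median of 0.10. Over all 12393 genes the corresponding medians of mice 1 to 4 were -0.05, 0.06, 0.09 and -0.06, and the shares above the other mice were 42.8%, 57.9%, 59.8% and 42.9%. The 6 of 9 members above in mouse 2 are thus close to the share of all genes.

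The highest level was in mouse 3 for 7 of the 9 genes, against 33.5% of all genes. The lowest was in mouse 1 for 7 of the 9, against 28.9% of all genes, and in mouse 1 or mouse 4 for 8 of the 9, against 59.6%. With the arrays shifted to the same median, the highest level was in mouse 3 for 7 of the 9 members and 23.1% of all genes, and the lowest was in mouse 1 or 4 for 43.3% of all genes. The exceptions for the highest level were Thrsp, highest in mouse 2, and Me1, highest in mouse 4. From the highest mouse to the lowest, the order 3, 2, 4, 1 was shared by Acacb, Fasn, Pgd and Acss2, and was found in 7.67% of all genes. When mouse 1 was left out the median of mouse 2 turned to -0.07, while mouse 3 stayed above the others by 0.46 to 0.69 whichever other mouse was left out. The median of mouse 4 was -0.51 without mouse 1, -0.03 without mouse 3 and -0.12 with the arrays shifted to the same median.

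**Figure D1:**
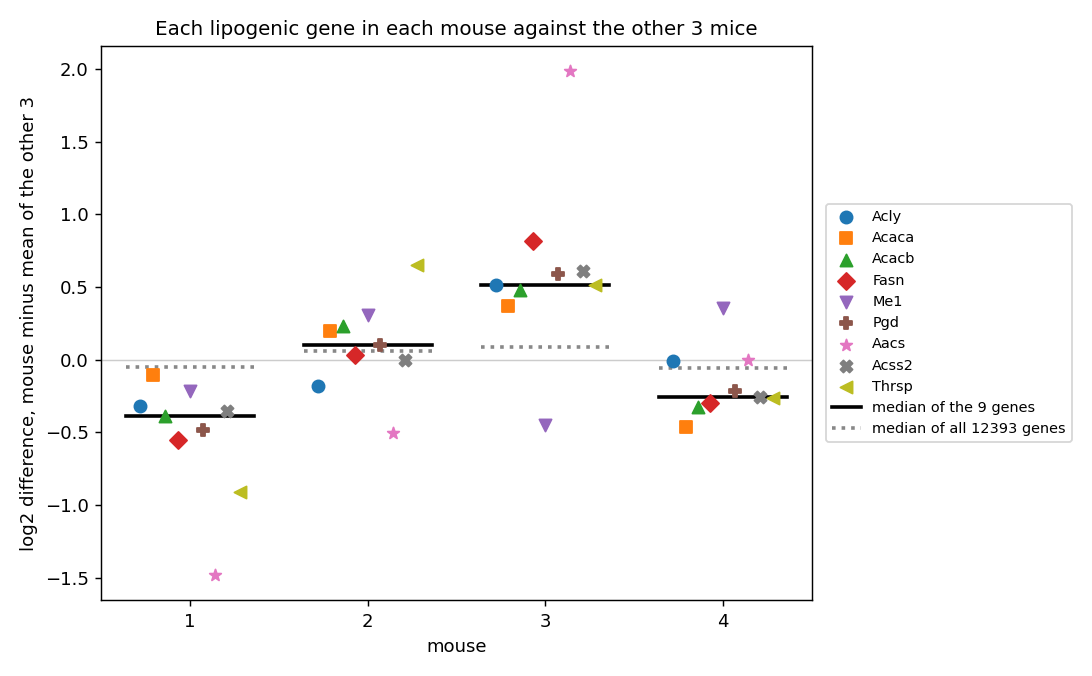
Log2 difference of each mouse from the mean of the other 3 mice, for 9 lipogenic genes (symbols, 1 probe set a gene), with the median of the 9 genes (black bars) and of all 12393 genes (dotted grey bars). In mouse 3, 8 of 9 genes lie above 0, with Me1 below at -0.45, and in mouse 1 all 9 lie below 0.

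Acly, Acss2 and Aacs were highest in mouse 3 on their brightest probe sets. Acly, ATP-citrate lyase, which cleaves citrate into acetyl-CoA and oxaloacetate, had a log2 signal of 12.32, 12.42, 12.94 and 12.55 in mice 1 to 4 on its brightest probe set. Mouse 3 was the high one and the other mice lay within 0.23 log2 of each other, so the highest and lowest mice differed by 1.54-fold. The identifier of that probe set, like those of the 2 dimmest, ends in _x_at, which marks probes that may bind other transcripts. A second probe set of Acly read 11.92, 12.42, 12.82 and 12.19, and another 8.82, 9.71, 9.87 and 9.25. All 5 probe sets of Acly were lowest in mouse 1, and 4 of the 5 were highest in mouse 3. The other 2 had mean log2 levels of 3.86 and 4.13, among the dimmest 7.50% of the array, where their spans of 31.2-fold and 15.7-fold rest on signals of 3.1 to 96.6 and 4.7 to 74.0 units.

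Acss2, the cytosolic acetyl-CoA synthetase that activates free acetate, had log2 signals of 11.68, 11.94, 12.40 and 11.75 in mice 1 to 4, and 11.58, 11.51, 11.99 and 11.45 on its other probe set. Mouse 3 was highest on both, by 0.46 log2 over mouse 2 on the first probe set. The lowest mouse was not the same, being mouse 1 on the first and mouse 4 on the other.

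Aacs, which activates acetoacetate to acetoacetyl-CoA in the cytosol and so feeds ketone carbon into sterol and fatty acid synthesis, had the widest difference among the members. Its log2 signal was 9.37, 10.11, 11.97 and 10.48 in mice 1 to 4, so mouse 3 was 6.06-fold above mouse 1 and 3.64-fold above mouse 2. A second probe set gave the same order of the mice, at 9.36, 9.65, 11.03 and 10.21. The third, the dimmest of the gene, ran the other way, at 6.81, 5.88, 3.96 and 5.35, with its highest value in mouse 1 and its lowest in mouse 3. The 3 probe sets of Aacs therefore did not share 1 pattern, and what the third one reads was not tested.

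**Figure D2:**
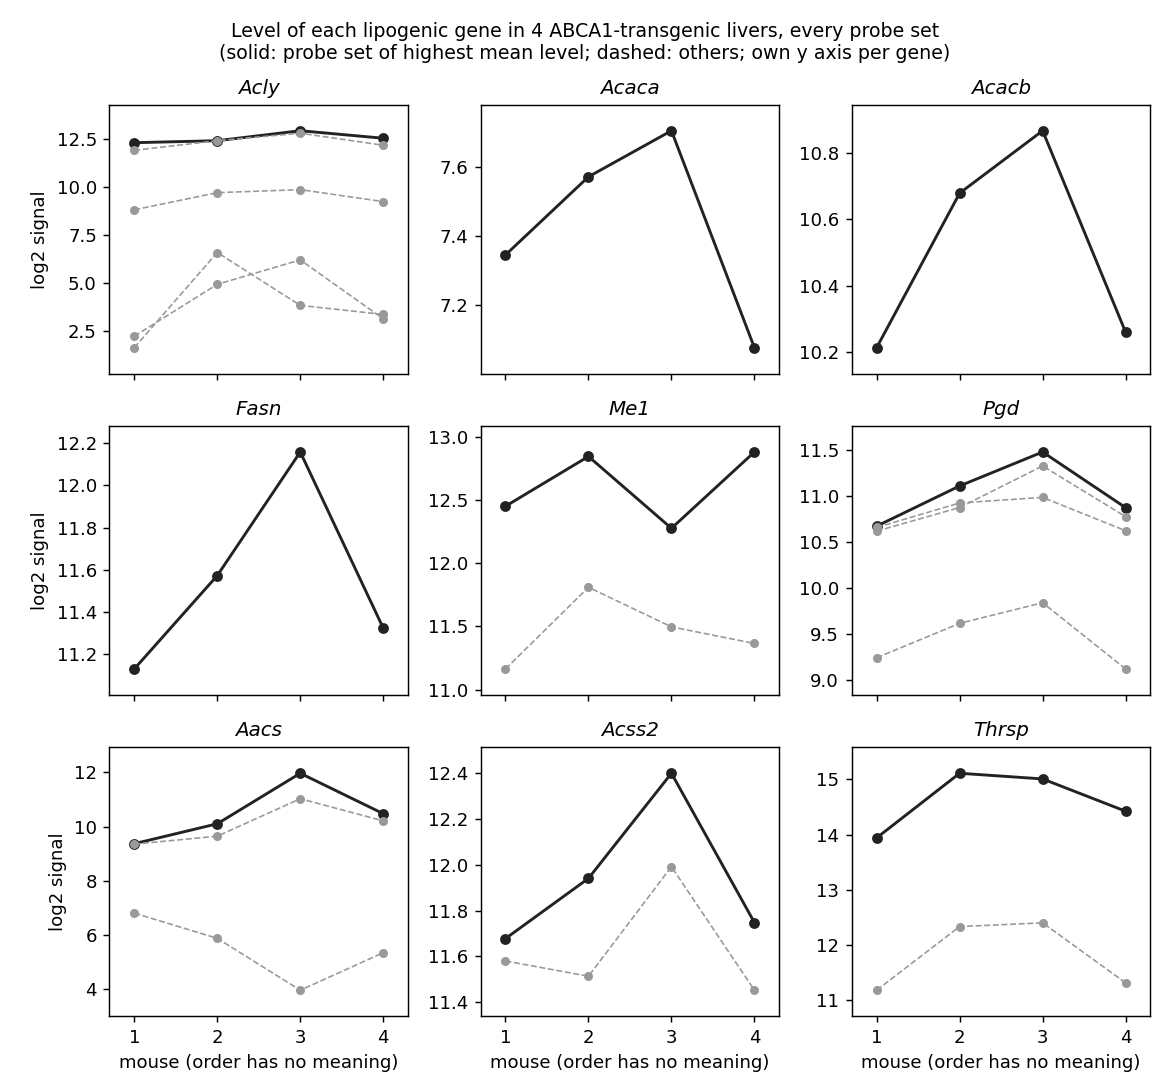
Log2 signal of each of the 9 lipogenic genes in the 4 mice, with a panel and y axis for each gene; the solid line is the probe set of highest mean level, dashed lines are the gene's other probe sets, and lines join the values of 1 probe set without implying an order of mice. Mouse 3 is the peak for 7 of the 9 solid lines, and the dimmest Aacs probe set runs opposite to the other 2.

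The enzymes that commit acetyl-CoA to palmitate were also highest in mouse 3, by less than Aacs. Acaca, the acetyl-CoA carboxylase of the cytosol whose malonyl-CoA is used for synthesis, had log2 signals of 7.35, 7.57, 7.71 and 7.08 in mice 1 to 4. Its SD of 0.28 was 0.715 times the usual SD at its level, so its 1.54-fold span was within the spread of other probe sets of like brightness. Acacb, the carboxylase whose malonyl-CoA restrains fatty acid entry into mitochondria, measured 10.21, 10.68, 10.87 and 10.26. Mice 2 and 3 were high and mice 1 and 4 low, with 0.42 log2 between the nearest of the 2 pairs and 1.57-fold between the extremes. Acaca and Acacb both placed mice 3 and 2 above mice 1 and 4. The orders that do so (3, 2, 1, 4; 3, 2, 4, 1; 2, 3, 1, 4; 2, 3, 4, 1) were common. They held 7.88%, 7.67%, 7.39% and 6.31% of all genes.

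Fasn, fatty acid synthase, measured 11.13, 11.57, 12.16 and 11.32 log2 in mice 1 to 4. Mouse 3 stood 0.59 above mouse 2, the next highest, and 1.03 (2.04-fold) above mouse 1. Its SD of 0.45 was 2.56 times the usual SD at its level. Acaca, Acacb and Fasn had 1 probe set each, so none of them could be checked against another probe set.

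Of the NADPH enzymes, Pgd followed the same order and Me1 did not. Pgd, 6-phosphogluconate dehydrogenase of the pentose phosphate pathway, had log2 signals of 10.67, 11.11, 11.48 and 10.87 in mice 1 to 4 on its brightest probe set. All 4 of its probe sets were highest in mouse 3 and second highest in mouse 2, with spans of 1.29-fold to 1.75-fold. Mice 1 and 4 exchanged the last place between probe sets, each being lowest on 2. Identifiers of 3 of the 4 probe sets end in _x_at, which marks probes that may bind other transcripts.

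Me1, the cytosolic malic enzyme, which makes NADPH from malate, measured 12.45, 12.84, 12.28 and 12.88 log2 on its brightest probe set, so that mice 2 and 4 were high and mouse 3 was the lowest. On the other probe set it measured 11.16, 11.81, 11.50 and 11.36, with mouse 2 high and mouse 1 low. The 2 probe sets had mouse 2 above mouse 1 in common, by 0.39 and by 0.65 log2, and disagreed on the place of mouse 3.

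Thrsp, also called Spot 14, a nuclear and cytosolic protein induced by thyroid hormone and carbohydrate, was higher in mice 2 and 3 than in mice 1 and 4. Its brightest probe set, with a mean level above 99.2% of the array, measured 13.94, 15.11, 15.01 and 14.42 log2 in mice 1 to 4. The other measured 11.18, 12.33, 12.40 and 11.31. Mice 2 and 3 were above mice 1 and 4 on both, and mouse 1 was the lowest on both. The orders with mice 2 and 3 on top were found in 7.88%, 7.67%, 7.39% and 6.31% of all genes. The span was 2.25-fold on the first and 2.33-fold on the other. Adipocytes also express Thrsp strongly. Of the 8 measured adipocyte markers, Adipoq and Retn had the order of mice of the brightest Thrsp probe set and the other 6 did not, Cidec and Car3 being lowest in mouse 2. The median of the adipocyte list was 0.49 in mouse 2 and -0.20 in mouse 3, the mice in which Thrsp was high. The part of fat cells in the Thrsp values was not tested.

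No lipogenic probe set passed the test of single probe sets. In that test the variance between the 4 mice is compared, with limma's F-test, to a prior variance that follows mean level, and the p-values of the 22626 probe sets are adjusted together (Benjamini-Hochberg). Of the 21 member probe sets 0 passed at an adjusted p of 0.05, as did 0% of all probe sets. With an unadjusted p under 0.05 there were 6 of the 21, on Aacs (2), Thrsp (2), Fasn and Acly, against 3.71% of all probe sets. The Acly probe set among these is the one of mean log2 level 3.86. The smallest unadjusted p was that of Aacs, 0.00122 (adjusted p = 0.977, limma, n = 4). The median ratio of SD to prior SD was 1.90 over the 21 member probe sets and 0.966 over all probe sets. With 3 degrees of freedom for each probe set, a missed threshold does not show that the mice had the same level.

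**Figure D3:**
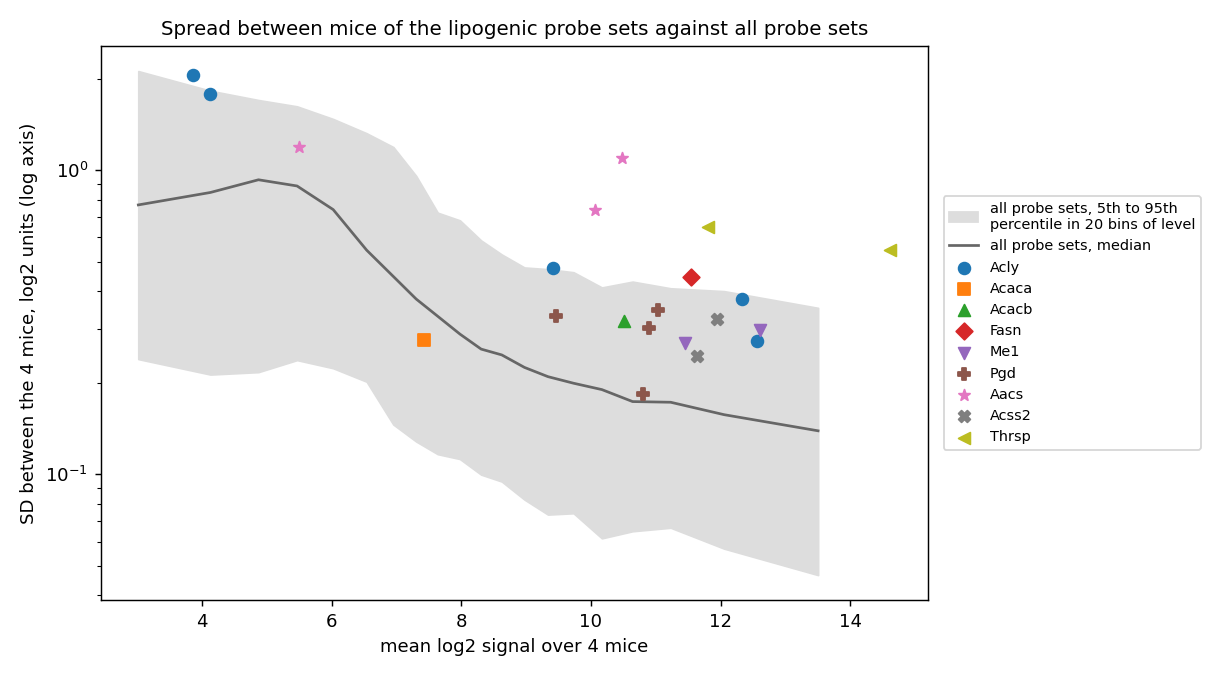
SD between the 4 mice (log2 units, log axis) against mean log2 signal for the 21 lipogenic probe sets (coloured symbols), over the median and the 5th to 95th percentile of all probe sets in 20 bins of mean level (grey line and band). Fasn, the 2 brighter Aacs probe sets and both Thrsp probe sets lie higher than the top of the band at the nearest level (1 Thrsp probe set is brighter than the last bin), as do, by a small margin, the dimmest Acly probe set and the one of mean level 9.41, and Acaca lies below the median line.

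Where a gene had at least 2 probe sets, the difference between mice that its probe sets share could be set against their disagreement. This F-test with limma's moderated variance was run on 4956 genes, of which 0.343% passed at an adjusted p of 0.05, and 2 of the 6 members tested were among them. Thrsp had a shared SD between mice of 0.59 log2 over 2 probe sets (adjusted p = 0.035, limma), with mice 1 to 4 at -0.65, 0.51, 0.49 and -0.35 from its mean. Pgd had a shared SD of 0.28 log2 over 4 probe sets (adjusted p = 0.035, limma), with mice 1 to 4 at -0.25, 0.08, 0.36 and -0.20.

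Acss2 and Acly had an unadjusted p under 0.05 and did not pass (adjusted p = 0.31 and 0.35, limma), and Me1 (adjusted p = 0.58) and Aacs (adjusted p = 0.96) did not pass either. With an unadjusted p under 0.05 there were 4 of the 6 members, against 8.92% of the genes tested. When probe sets with a mean log2 level under 6 were left out, which removed the third Aacs probe set and the 2 dimmest of Acly, 4 of 6 members passed: Aacs at an adjusted p of 0.014, Acly at 0.040, Pgd at 0.019 and Thrsp at 0.010 (limma), against 1.05% of the genes tested. Without mouse 1, 2, 3 or 4 in turn the adjusted p of Thrsp was 0.195, 0.084, 0.15 and 0.047, and that of Pgd 0.23, 0.079, 0.63 and 0.13, so Thrsp passed only without mouse 4 and Pgd in none. Both calls also ended when signals under 64 were raised to 64 (adjusted p = 0.11 and 0.081, limma). No signal of Thrsp or Pgd was under 64, so their shared SDs stayed at 0.59 and 0.28 and the floor acted through other genes. The call of Pgd ended too when the arrays were shifted to the same median (adjusted p = 0.11, limma). Probe sets of a gene share the RNA and the array, so this test does not tell the animal from its array.

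Markers of other cells and tissues also differed between the mice. Stellate cell markers had medians of 0.44 in mouse 3 (4 of 7 above) and -0.40 in mouse 1 (2 of 7 above), and summed signals from 12870 in mouse 1 to 14708 in mouse 3. Macrophage markers had medians of 0.24 in mouse 3 (7 of 7 above) and -0.15 in mouse 1 (1 of 7 above), and summed signals from 27350 in mouse 1 to 34882 in mouse 3. Skeletal muscle markers were at -3.06 in mouse 1 (0 of 12 above), with summed signals of 969 there and 6863 to 9695 in mice 2 to 4. Bile duct markers were at -0.63 in mouse 1 (0 of 5 above), with summed signals of 398 there and 977 to 1202 in mice 2 to 4.

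Exocrine pancreas markers were at 1.64 in mouse 2 (8 of 8 above) and -0.89 in mouse 3 (0 of 8 above), with summed signals from 1873 in mouse 1 to 6269 in mouse 2. Adipocyte markers, a source that would also carry lipogenic transcripts, were at 0.49 in mouse 2 (6 of 8 above), -0.20 in mouse 3 (4 of 8 above) and -0.27 in mouse 1 (3 of 8 above). Their summed signal ran from 43697 in mouse 2 to 51277 in mouse 1 and was mostly Car3, which hepatocytes express too. None of the 8 measured adipocyte markers was at 0, the leptin gene Lep being the dimmest at 16.9 to 41.9 units. The median of the hepatocyte list stayed within 0.14 of the other mice in each mouse. Of its 5 measured genes, 2, 5, 0 and 2 were above the others in mice 1 to 4. Their summed signal ran from 238730 in mouse 3 to 273533 in mouse 2. Without mouse 1, mouse 3 was at 0.29 for stellate cell, 0.17 for macrophage, -0.41 for adipocyte and -0.32 for skeletal muscle markers. The part of these cells in the lipogenic differences was not tested. Nor was that of the 3-prime to 5-prime ratios, lowest in mouse 1 and, for Gapdh and Actb, highest in mouse 3.

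Genes that work beside the lipogenic enzymes had medians close to those of all genes in each mouse. Of 67 listed partner genes 53 were measured. In the test of excess spread 4 had an unadjusted p under 0.05, against 3.71% of all probe sets, and 0 passed when adjusted. Over the 53, the median of mouse 3 was 0.03 above the others and that of mouse 1 was -0.08. Of the 53, 18 had their highest level in mouse 3, near the share of 33.5% of all genes. In the test of a shared difference 2 of the 36 with at least 2 probe sets passed, Lpin1 and Hmgcs1, against 0.343% of the genes tested. Hmgcs1, the cytosolic HMG-CoA synthase that leads acetoacetyl-CoA into sterol synthesis, had shared deviations of -0.32, 0.14, 0.41 and -0.22 in mice 1 to 4 over 4 probe sets (adjusted p = 0.035, limma). Lpin1, the phosphatidate phosphatase lipin 1, had shared deviations of 0.34, 0.50, -0.98 and 0.14 over 2 probe sets (adjusted p = 0.035, limma). Hmgcs1 was thus highest in mouse 3 and Lpin1 lowest there.

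The counts by role are to be read beside the 59.8% of all genes that were above the other mice in mouse 3, and no role was tested against it. Among the transcriptional regulators 9 of 12 were above in mouse 3, with a median of 0.17. Srebf1, which encodes SREBP-1, had the largest SD, at 11.54, 12.01, 13.44 and 11.65 log2 in mice 1 to 4, with mouse 3 high, mouse 2 next and mice 1 and 4 low. Usf1, an E-box binding factor, measured 8.06, 8.39, 7.37 and 7.47 on its brightest probe set, lowest in mouse 3. Its other probe set, of nearly the same mean level, disagreed, at 7.38, 7.58, 8.22 and 7.79, highest in mouse 3. Mlx, the partner of ChREBP, had the smallest SD of the role at 9.52 ± 0.12 (SD, n = 4), with an SD of 0.35 on its dimmer probe set, which was highest in mouse 3. In the role that modulates acetyl-CoA carboxylase and malonyl-CoA, 6 of 8 were above in mouse 3, with a median of 0.20. Mid1ip1, a homologue of Thrsp that promotes polymerization of acetyl-CoA carboxylase, measured 10.94, 11.21, 12.04 and 11.07, with mouse 3 high and mouse 2, which was high for Thrsp, next above mice 4 and 1. Mlycd, malonyl-CoA decarboxylase, measured 11.01, 10.67, 11.31 and 11.14, and Stk11, the kinase upstream of AMPK, 10.11 ± 0.10 (SD, n = 4), with an SD of 0.92 on its dimmer probe set.

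In citrate and acetyl-CoA supply 2 of 6 genes were above in mouse 3. Cs, citrate synthase, measured 11.93 ± 0.08 and Mdh2, mitochondrial malate dehydrogenase, 14.05 ± 0.19 (SD, n = 4), while Acss1, the mitochondrial acetyl-CoA synthetase, read 3.36, 6.51, 3.88 and 6.09 at a dim level. In the glycolytic role Pklr, the liver pyruvate kinase, measured 10.90, 11.49, 11.38 and 11.48, lowest in mouse 1, with the fructose kinase gene Khk at 13.25 ± 0.09 and the glucose transporter gene Slc2a2 at 13.71 ± 0.08 (SD, n = 4). Of the role listed as other NADPH sources, which also holds pentose phosphate enzymes that do not make NADPH, 6 of 10 were above in mouse 3, with a median of 0.09. Rpia and Rpe, isomerase and epimerase of the pentose phosphate pathway, measured 8.41, 8.34, 8.48 and 7.67 and 10.60, 9.97, 10.38 and 10.58, and Pgls, its lactonase, 11.08 ± 0.13 (SD, n = 4).

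Of desaturation, elongation and esterification genes 3 of 10 were above in mouse 3, with a median of -0.07. Elovl6, which elongates palmitate, measured 10.59, 10.78, 11.25 and 11.49, highest in mouse 4. Dgat1, an acyltransferase of triglyceride synthesis, measured 10.38 ± 0.05 (SD, n = 4), and Lpin1 12.92, 12.97, 11.74 and 12.79 on its brightest probe set. On the ketone body route, Hmgcs1 measured 13.63, 14.34, 14.65 and 13.79 on its brightest probe set, Oxct1 7.88, 7.48, 8.09 and 7.86, and Bdh1, hydroxybutyrate dehydrogenase, 12.45 ± 0.05 (SD, n = 4).

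**Figure D4:**
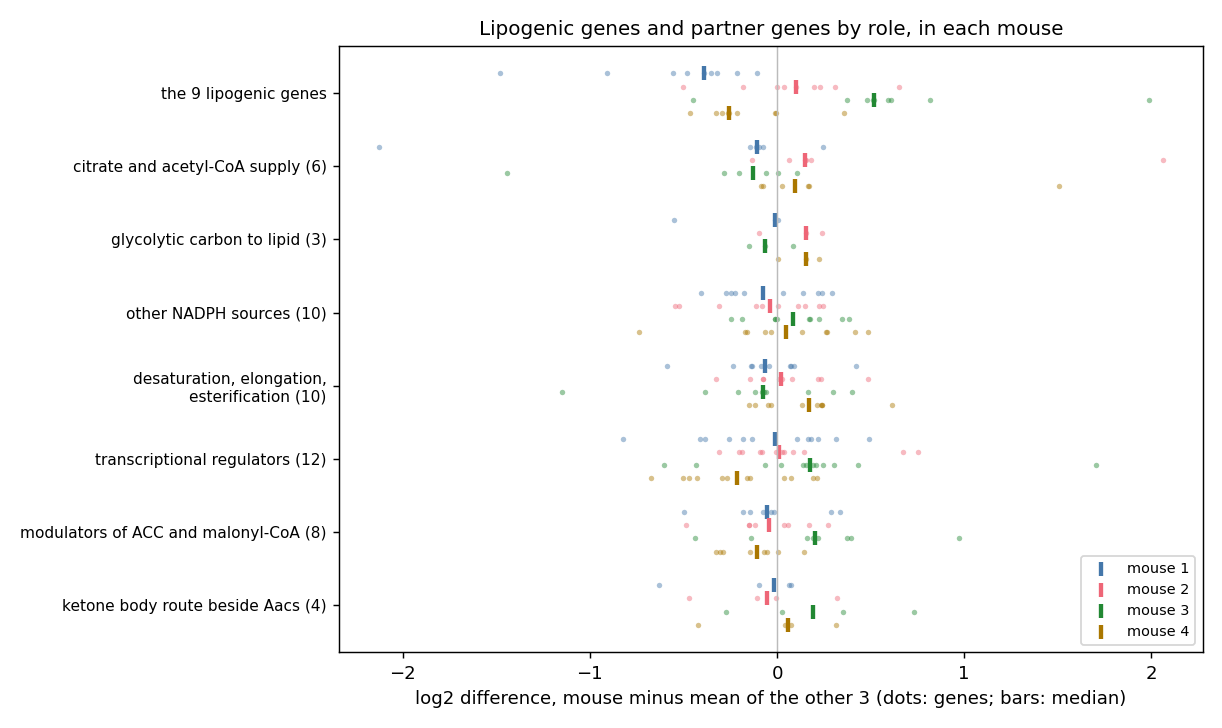
Log2 difference of each mouse from the mean of the other 3 for the 9 lipogenic genes and for partner genes grouped by role, with the number measured in parentheses (dots: genes; vertical bars: median of the group in that mouse). The mouse 3 median is 0.52 for the lipogenic genes and lies between -0.13 and 0.20 for the 7 partner roles.

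The median pattern of the 9 lipogenic genes over mice 1 to 4 was -0.29, 0.08, 0.39 and -0.19 log2 from each gene's mean. Pgd, Acss2 and Acacb lay closest to it, with root mean square differences of 0.05, 0.05 and 0.06 log2, and Me1 and Aacs lay farthest, at 0.44 and 0.73. Among 7399 other genes with a mean log2 level of at least 8, the 8 nearest to it over the 4 mice were Qprt, Tm6sf1, Ddx24, Pim2, Tlr2, Cxcl16, Aldh1b1 and Nudt16l1, at 0.02 to 0.03 log2. Qprt, the phosphoribosyltransferase of NAD synthesis from quinolinate, measured 12.08, 12.46, 12.77 and 12.22 log2. All 8 had the order 3, 2, 4, 1, which is the order of the median pattern they were picked to match. Their distances describe 4 arrays only.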

How the data were processed

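Liver RNA of 4 ABCA1-TG mice was hybridized to 1 biotin-labelled oligonucleotide array each. Per the labels' protocols, the RNA (2 ug) went through RiboAmp amplification before labelling. The deposited values are 1 linear signal intensity per probe set and array, scaled by the authors to a 2%-trimmed mean of 1000.4 to 1000.5 on every array. The submitters' processing notes name RMA, with no version, and the steps before scaling are not given in the sources used here. The deposited values have unequal array medians and signals as low as 0.9 units (a dim Rpe probe set in mouse 3). Whether RMA made these values was not tested. Signals were analysed as log2 without a pseudocount or another normalization, and 64 control probe sets were left out. Tests across genes used limma 3.58.1 in R 4.3.3, as described beside their results, and were tested on simulated data. Precision is limited by the number of arrays. One further allele of the mice that the labels name is not reported here.

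The members and gene lists were chosen with earlier results of these data known, and the test of a shared difference was first used after the data had been seen. In each partner role the 2 genes of largest SD, the 1 of smallest SD and any gene past the shared test are named, with all members, Abca1 as a check and the 8 genes of nearest pattern. Other genes are named as markers. Alternatives were other scalings, a signal floor, filters on level and identifier, other priors, means over probe sets, and leaving out each mouse.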

Additional observations from a re-analysis of the deposited data

Results flagged for a closer look

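Of 42 member and named partner probe sets examined with Dixon's test within the group of 4 mice, 1 had a mouse far from the others. On the brightest probe set of Lpin1, mouse 3 measured 11.74 log2 against 12.79 to 12.97, and its gap to the nearest mouse was 0.852 of the range, above the 95% critical value for 4 samples. Of the 21 lipogenic probe sets 0 were above it. Chance flags about 1 in 20 such groups, and 5.90% of all probe sets on the arrays were above the critical value.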

How the results depend on the processing

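The count of 0 member probe sets past the adjusted test of spread held under every alternative run, with 2 at an unadjusted p under 0.05 under a prior with no trend on mean level and 4 to 8 of 21 when 1 mouse was left out. The count of members past the test of a shared difference moved most. It was 2 of 6 in the values given, 1 (Thrsp) with arrays shifted to the same median, 0 with signals under 64 raised to 64, 4 with a mean log2 level of at least 6, 1 of 5 (Thrsp) without probe sets ending in _s_at or _x_at, and 0 to 1 when 1 mouse was left out. Without probe sets ending in _s_at or _x_at, Pgd had 1 probe set left and could not be tested. With the shift, 55 of all 4956 genes passed, and with the floor 1 did. The cause was not tested, except that fewer probe sets were tested under the filters. The floor left every signal of Thrsp and Pgd unchanged. The median of mouse 3 was 0.40 to 0.69 and that of mouse 1 -0.56 to -0.32 over all alternatives. The median of mouse 2 was 0.01 with arrays shifted to the same median, and -0.066 (without mouse 1, the direction reversed) to 0.34 when 1 mouse was left out. That of mouse 4 was -0.51 to -0.03. The number of members highest in mouse 3 was 6 to 8 of 9. With arrays shifted, 3 of 9 members were above the others in mouse 4, in place of 1. Of 266 single values recomputed, 254 kept their side of the threshold. Most of these were values of single probe sets, whose lowest adjusted p in the test of excess spread was 0.26 under any setting (limma). The 12 that changed side were all in the test of a shared difference. They were Pgd or Thrsp where a call ended, and Acly and Aacs with a mean log2 level of at least 6. No paired analysis was possible because there is only 1 group.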
